A study of Mus musculus with 12 samples.

Results

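The Polycomb group genes described here are 37 genes for the subunits of Polycomb repressive complexes 1 and 2 (PRC1 and PRC2), for the Polycomb deubiquitinase and for the enzymes that remove the methyl mark of PRC2. They were taken as a named list by gene symbol, and all 37 were found among the 22878 gene symbols of the deposited tables. For 13 of them the tables hold several transcript models, and the longest stood for its gene. For Yaf2 that longest model is a non-coding one.

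Polyadenylated RNA of mouse embryonic stem (ES) cells, the pluripotent cells of the early embryo, was sequenced in 12 libraries. Cells labelled as lacking the histone H4 lysine 20 methyltransferases SUV420H1 and SUV420H2 (DKO) and cells lacking SUV420H2 alone (KO) were set beside wild-type cells (WT), to ask which transcripts differ without these enzymes before and after differentiation. Each genotype had 2 libraries of undifferentiated cells and 1 library each at days 8 and 12 of differentiation. The growth protocol, given alike for all 12 libraries, names gelatin-coated dishes and 1.5 µM of a GSK3 inhibitor over several passages that removed feeder cells. Nothing in the labels tells if a genotype's pair of ES libraries stems from separate cultures, or how many clones a line stands for. The p-values therefore measure only the spread between these libraries, which may be technical.

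Polycomb proteins keep developmental genes silent. PRC2 methylates lysine 27 of histone H3 (H3K27), PRC1 ubiquitinates lysine 119 of histone H2A, and in ES cells both sit mainly on CpG-rich promoters of lineage genes. PRC1 comes in a canonical form, whose CBX subunit reads the PRC2 mark and whose PHC subunit compacts chromatin, and in variant forms that hold RYBP or YAF2 instead.

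Levels are given as RPKM, reads scaled to transcript length and library size, recomputed from the deposited counts with trimmed-mean (TMM) library sizes. Depending on the library, these levels were 1.67 to 1.97 times the deposited RPKM. The libraries held 22538336 to 26675600 reads in genes. Suv420h2 was at 10.4 and 6.64 RPKM in DKO, at 8.57 and 7.76 RPKM in KO and at 54.5 and 49.3 RPKM in WT ES cells. Suv420h1 was at 9.84 and 11.4 RPKM in DKO against 7.21 and 8.00 RPKM in WT ES cells. Counts over a whole transcript do not show the loss of single exons, so they check nothing about the loss of SUV420H1 in the libraries labelled DKO. The 7 ES cell markers, among them Pou5f1 and Sox2, summed to 2987 to 3367 RPKM in DKO, 4711 to 5060 RPKM in KO and 5695 to 5772 RPKM in WT ES cells, and none was at 0. The 8 markers of fibroblasts, which serve as feeder cells, summed to 13.5 to 14.2 RPKM in DKO, 20.4 to 24.6 RPKM in KO and 10.9 to 12.8 RPKM in WT ES cells, with Postn at 0 in DKO and KO. The part of these markers in the values below was not tested.

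Among the Polycomb genes the levels in WT ES cells spanned a wide range. The highest was Jarid2, the PRC2 subunit that helps recruit the complex, at 173 and 171 RPKM, followed by Phc1 at 165 and 165 RPKM and Cbx7 at 122 and 128 RPKM. The PRC2 core subunits Eed, which binds the H3K27 mark, and Suz12, the scaffold, stood at 79.9 and 82.9 RPKM and at 75.5 and 71.1 RPKM. The level of Rbbp7, 83.0 and 71.5 RPKM, does not differ from either beyond the spread between the 2 libraries. At the low end were Scml2 (0.45 and 0.33 RPKM), Pcgf1 (0.52 and 0.92 RPKM), Bmi1 (1.20 and 0.83 RPKM), Cbx8 (1.01 and 2.22 RPKM) and Phc3 (2.02 and 2.33 RPKM). Scml2 and Pcgf1 did not pass the filter of 1 deposited RPKM in 2 libraries in any comparison, so 35 of the 37 genes were tested throughout. Scml2, an X-linked relative of Scmh1, was at 0.28 and 0.29 RPKM in DKO and at 1.77 and 1.62 RPKM in KO ES cells. The filter applied to the deposited RPKM, which are lower than these levels. Pcgf1, the PCGF subunit that works with Kdm2b and Bcor, ranged between 0.25 and 3.50 RPKM over the 12 libraries, from 5 to 71 reads.

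Several pairs of paralogues were far apart in level per length in WT ES cells. The ratio of Ezh1 to Ezh2, the 2 H3K27 methyltransferases, was 0.45 and 0.43, that of Ring1 to Rnf2, the 2 ubiquitin ligases of PRC1, 0.15 and 0.16, and that of Phc2 to Phc1 0.085 and 0.079. The ratio of Bmi1 to Pcgf2, the PCGF subunits of canonical PRC1, was 0.025 and 0.017, and that of Cbx8 to Cbx7 0.0083 and 0.017. Pcgf6, of a variant PRC1, stood nearer to Pcgf2, at 35.9 and 42.3 RPKM beside 47.4 and 48.4 RPKM.

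**Figure D1:**
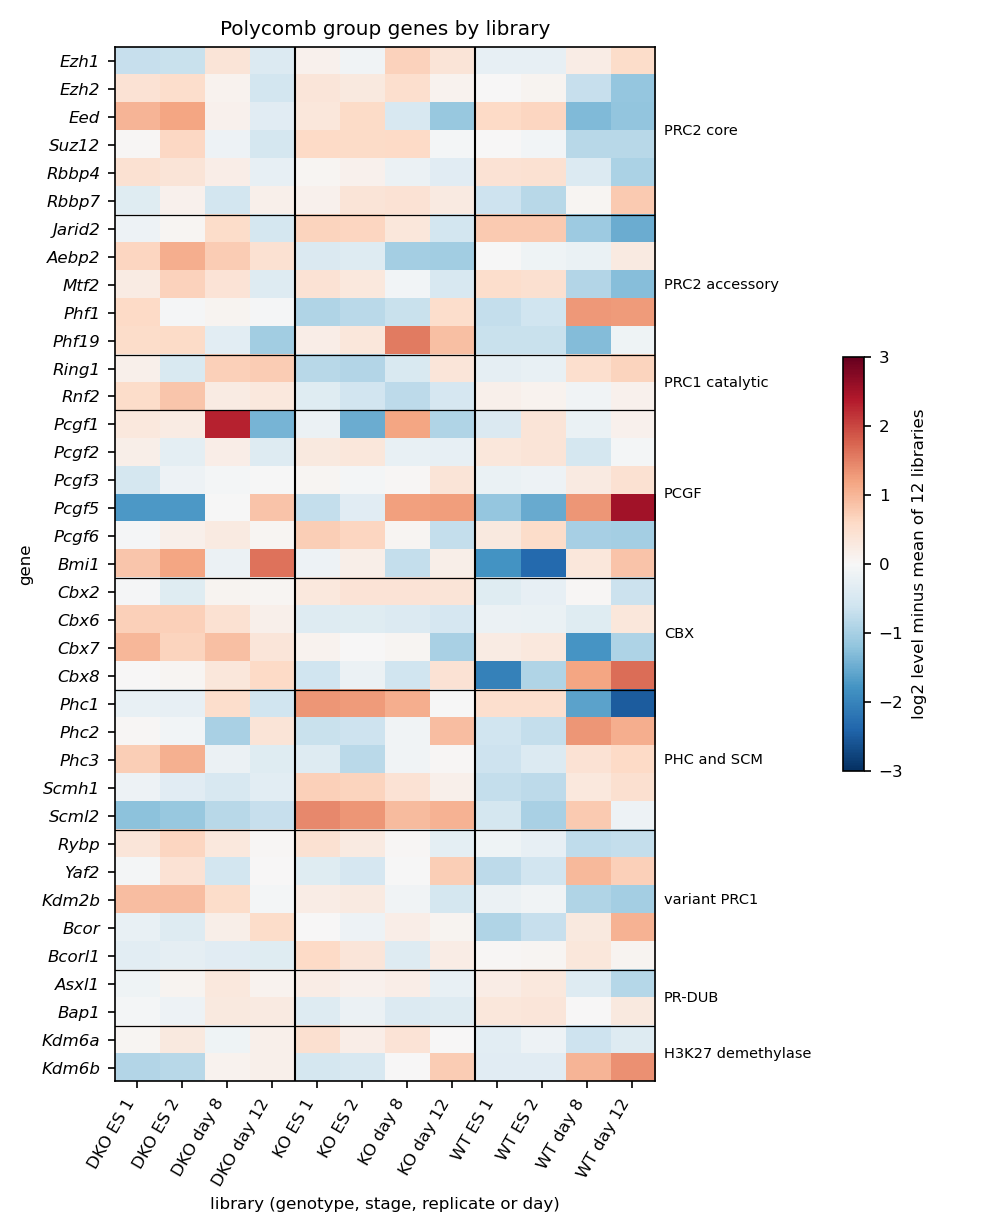
Levels of the 37 Polycomb genes in the 12 libraries, as log2 of the level minus its mean over the libraries, grouped by role (rows) and by genotype and stage (columns). In WT, the day 8 and day 12 libraries of Phc1, Bmi1, Cbx8 and Pcgf5 lie on the other side of the mean from the ES libraries, and Pcgf1, with few reads, is highest in DKO at day 8.

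Promoters of 4 members are printed, those of Phc1, Bmi1 and Cbx8 because their levels ranged widely and passed the interaction test below in both mutant lines, and that of Cbx7 as the abundant paralogue of Cbx8. The highest level over the lowest was 15.5 for Bmi1, 14.1 for Phc1, 13.0 for Cbx8 and 6.79 for Cbx7 over the 12 libraries. Pcgf5, with 3 promoters in the table, had the widest range of the 37 genes, at 18.9, and is not shown. Each sequence covers 250 bases before to 50 bases after the start of the gene in the RefSeq table of mouse build GRCm38.p6, reads 5′ to 3′ on the gene's strand and has its CpG sites in capitals.
Phc1, chr6:122340178-122340477, minus strand: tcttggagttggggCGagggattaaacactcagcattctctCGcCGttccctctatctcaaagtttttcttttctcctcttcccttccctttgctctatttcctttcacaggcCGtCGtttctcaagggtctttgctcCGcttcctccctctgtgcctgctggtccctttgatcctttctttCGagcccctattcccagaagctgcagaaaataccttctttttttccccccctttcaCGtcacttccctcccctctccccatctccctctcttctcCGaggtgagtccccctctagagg
Cbx7, chr15:79932597-79932896, minus strand: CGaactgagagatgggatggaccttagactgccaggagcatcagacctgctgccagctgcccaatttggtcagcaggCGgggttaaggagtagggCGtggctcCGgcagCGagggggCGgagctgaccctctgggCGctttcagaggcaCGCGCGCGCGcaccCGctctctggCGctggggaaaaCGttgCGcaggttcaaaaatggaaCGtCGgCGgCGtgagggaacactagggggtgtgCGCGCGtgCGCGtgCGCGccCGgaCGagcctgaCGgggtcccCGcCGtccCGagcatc
Bmi1, chr2:18676768-18677067, plus strand: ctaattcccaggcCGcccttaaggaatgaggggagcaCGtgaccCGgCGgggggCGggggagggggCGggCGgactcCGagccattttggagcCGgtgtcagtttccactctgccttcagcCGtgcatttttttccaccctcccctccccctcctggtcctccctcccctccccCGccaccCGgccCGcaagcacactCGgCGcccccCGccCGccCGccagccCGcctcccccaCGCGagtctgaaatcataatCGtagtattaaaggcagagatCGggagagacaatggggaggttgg
Cbx8, chr11:119040864-119041163, minus strand: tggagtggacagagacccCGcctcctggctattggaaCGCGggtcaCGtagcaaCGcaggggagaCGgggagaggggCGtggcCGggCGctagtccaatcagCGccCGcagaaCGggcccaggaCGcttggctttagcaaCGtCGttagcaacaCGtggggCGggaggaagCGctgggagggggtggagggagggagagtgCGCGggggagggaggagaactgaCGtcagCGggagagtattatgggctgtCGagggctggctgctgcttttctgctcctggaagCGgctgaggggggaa
The 300 bases held 9 CpG sites at Phc1, 33 at Cbx7, 23 at Bmi1 and 24 at Cbx8. The table holds 45 promoters for 32 of the 37 members, with 0 to 54 CpG sites each and a median of 23, beside a median of 7 over all 32851 promoters. Phc1, among the highest members in ES cells, thus has fewer CpG sites than most members. The E-box CACGTG, which reads the same on both strands, lies in the windows of Bmi1 and Cbx8 and not in those of Phc1 and Cbx7. It lies in 10 of the 45 member promoters (22.2%) and in 7.15% of all promoters of the same length. The motif itself holds a CpG site, and these shares were not matched for the CpG content of the promoters. A match is a description of the letters and no evidence of binding, and the members were chosen by role, not at random.

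Before differentiation 10 genes were called higher in both mutant lines, Bmi1, Phf19, Cbx8, Kdm2b, Rbbp7, Scmh1, Rybp, Bcor, Kdm6a and Suz12. Phc1, Bcorl1 and Rnf2 were changed in opposite directions in DKO and KO cells. Of all 12044 genes tested, 3880 were higher in DKO and 2827 in KO. The shares of all genes higher in both lines or changed in opposite directions were not computed. In DKO against WT ES cells 29 of the 35 genes tested changed at an adjusted p under 0.05 (edgeR quasi-likelihood test), 20 higher and 9 lower, where 63.9% of all 12044 genes tested changed. In KO against WT 18 of 35 changed, 14 higher and 4 lower, where 42.7% of all genes changed. In DKO against KO 23 of 35 changed, 13 higher and 10 lower, where 67.3% of all genes changed. The median log2 fold change of the 35 genes was 0.44 in DKO and 0.26 in KO, beside medians of -0.007 and -0.007 over all genes tested. The DKO and KO comparisons share the 2 WT libraries, so they are not independent of each other. Leaving out 1 ES library at a time gave 21 to 30 DKO calls and 12 to 23 KO calls, with the lowest DKO count without either WT library and the lowest KO count without either WT library or KO replicate 1. In all, 18 of the 29 DKO calls and 8 of the 18 KO calls held in every omission. A fit over all 12 libraries, which shares its estimate of spread with the differentiated cells, called 16 genes in DKO and 8 in KO.

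**Figure D2:**
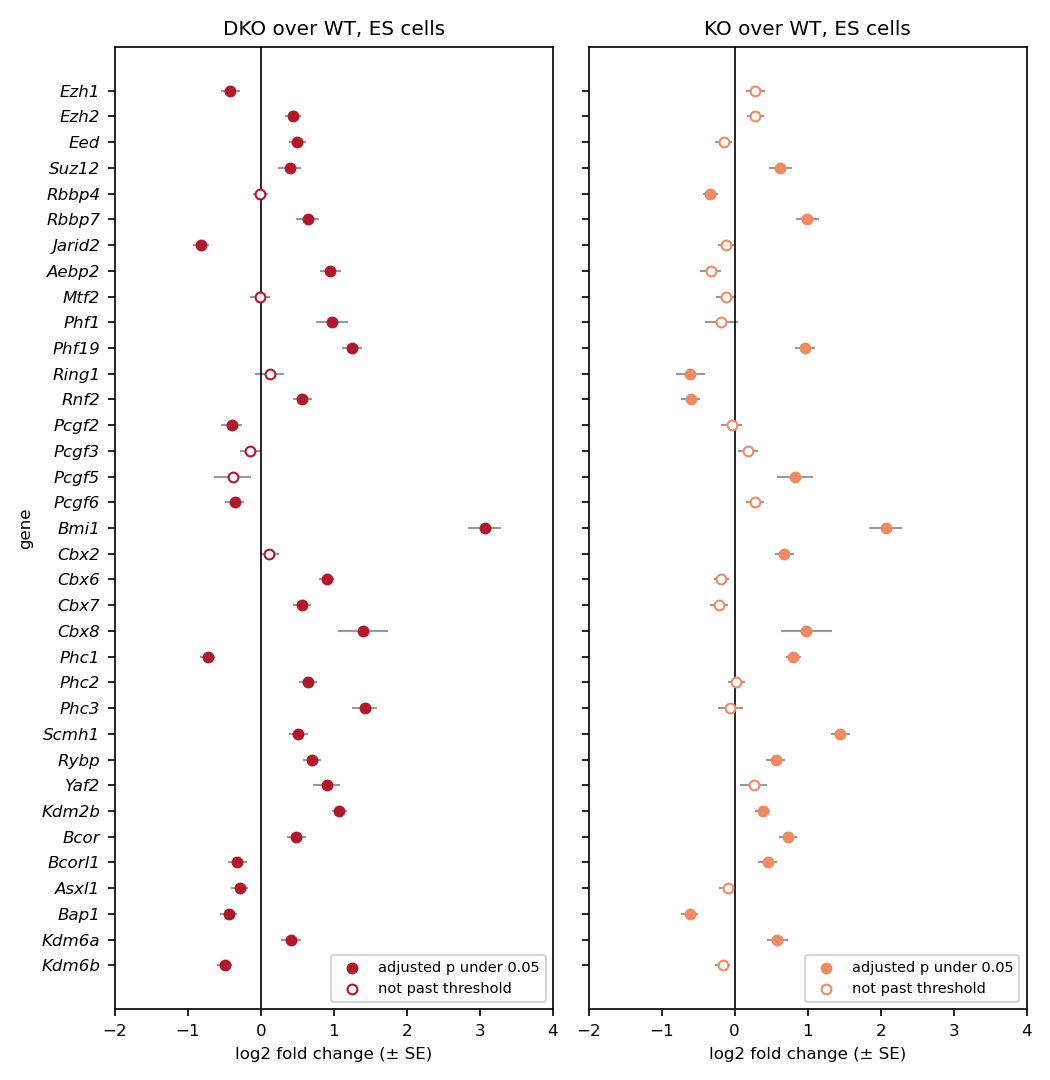
Log2 fold changes of the 35 tested Polycomb genes in ES cells, DKO over WT (left) and KO over WT (right), with standard errors, and filled points for an adjusted p under 0.05. Bmi1 stands farthest to the right in both panels, at 3.06 in DKO and 2.07 in KO, and Phc1 lies left of 0 in DKO and right of 0 in KO.

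Of the 6 PRC2 core genes, 4 were higher and 1 lower in DKO, and 2 were higher and 1 lower in KO. Over all genes tested, 63.9% changed in DKO and 42.7% in KO. Ezh2 was at 34.1 and 36.0 RPKM in DKO and at 32.2 and 30.5 RPKM in KO against 25.1 and 26.7 RPKM in WT ES cells. Its log2 fold change was 0.44 in DKO (SE 0.11, edgeR adjusted p = 0.0047) and 0.28 in KO (SE 0.11, adjusted p = 0.063). Ezh1 was at 8.40 and 8.63 RPKM in DKO and at 14.9 and 12.7 RPKM in KO against 11.4 and 11.5 RPKM in WT. The change of Ezh1 was -0.42 in DKO (SE 0.13, adjusted p = 0.014) and 0.28 in KO (adjusted p = 0.097). The 2 methyltransferases thus moved in opposite directions in DKO, where the ratio of Ezh1 to Ezh2 was 0.25 and 0.24. The DKO value of Ezh1 stood beside a median of -0.40 over all genes tested on its chromosome 11. Eed was at 108 and 121 RPKM in DKO, at 67.7 and 78.6 RPKM in KO and at 79.9 and 82.9 RPKM in WT, with no overlap between the genotypes. Eed was higher in DKO by 0.50 (SE 0.12, adjusted p = 0.0025), while the KO value of -0.15 did not pass (adjusted p = 0.35). Suz12 was at 76.8 and 115 RPKM in DKO, at 114 and 111 RPKM in KO and at 75.5 and 71.1 RPKM in WT. Rbbp7, the X-linked paralogue of Rbbp4, was at 99.9 and 140 RPKM in DKO and at 140 and 166 RPKM in KO against 83.0 and 71.5 RPKM in WT. Rbbp7 had a log2 fold of 0.64 (SE 0.16, adjusted p = 0.0033) in DKO and of 1.0 (SE 0.16, adjusted p = 0.00029) in KO. The rise of Suz12 in KO was 0.63 (SE 0.16, adjusted p = 0.0067). The 2 DKO libraries of Suz12 lay far apart, and the DKO value of 0.40 (adjusted p = 0.042) was 0.10 without DKO replicate 2 (adjusted p = 0.39). Rbbp4, a histone chaperone shared with other complexes, was at 59.2 and 57.2 RPKM in DKO and at 45.5 and 47.5 RPKM in KO against 58.4 and 59.4 RPKM in WT. The change of Rbbp4 was -0.01 in DKO (adjusted p = 0.94) and -0.33 in KO (SE 0.11, adjusted p = 0.022). The KO call of Rbbp4 was lost without each WT or KO library (adjusted p up to 0.21), and that of Suz12 without KO replicate 1 (0.056). The DKO call of Suz12 was also lost without each WT or KO library, that of Ezh1 without each WT library (up to 0.09) and that of Ezh2 without WT replicate 1 (0.091). In the fit over all 12 libraries the DKO values of Eed and Rbbp7 did not pass (adjusted p = 0.072 and 0.076).

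Among the 5 accessory subunits of PRC2, DKO cells had 3 higher and 1 lower (63.9% of all genes changed), and KO cells 1 higher (42.7%). Jarid2 was at 90.4 and 103 RPKM in DKO, at 158 and 157 RPKM in KO and at 173 and 171 RPKM in WT ES cells. Jarid2 changed by -0.82 in DKO (SE 0.11, edgeR adjusted p = 3.5e-05), beside -0.12 in KO (adjusted p = 0.40). Aebp2, which joins the same form of PRC2 as Jarid2, went the other way, with 31.4 and 42.9 RPKM in DKO, 15.0 and 15.5 RPKM in KO and 20.0 and 18.6 RPKM in WT. Aebp2 had a log2 fold of 0.95 (SE 0.14, adjusted p = 8.6e-05) in DKO and of -0.33 (adjusted p = 0.081) in KO. The other form of PRC2 holds a Polycomb-like protein, MTF2, PHF1 or PHF19. Phf19 was at 10.5 and 10.6 RPKM in DKO and at 8.17 and 9.03 RPKM in KO against 4.45 and 4.45 RPKM in WT. Phf19 had a log2 fold of 1.25 (SE 0.14, adjusted p = 7.1e-06) in DKO and of 0.96 (SE 0.14, adjusted p = 0.00013) in KO. All libraries of both mutant lines lay above both WT libraries. Phf1 was at 8.88 and 5.73 RPKM in DKO, at 3.18 and 3.37 RPKM in KO and at 3.58 and 3.91 RPKM in WT (DKO 0.97, SE 0.22, adjusted p = 0.0020). Exons of the opposite-strand gene Cuta cover 39.3% of the exon bases of Phf1 in the reference annotation. The sources used here do not state if counting used strand, so reads of the 2 genes cannot be told apart. Mtf2, the most abundant of the 3, was at 45.6 and 61.5 RPKM in DKO, 51.8 and 48.1 RPKM in KO and 54.8 and 53.8 RPKM in WT and passed in neither comparison. In the fit over all 12 libraries Phf19 in KO (adjusted p = 0.15) and Phf1 in DKO (0.059) did not pass.

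The PRC1 ligases and PCGF subunits differed between the mutant lines. Rnf2, the main ligase of ES cells, was at 68.0 and 83.8 RPKM in DKO, at 36.4 and 31.2 RPKM in KO and at 52.4 and 50.6 RPKM in WT ES cells. It was higher in DKO (0.56, SE 0.13, edgeR adjusted p = 0.0023) and lower in KO (-0.60, SE 0.13, adjusted p = 0.0028). The direct comparison of DKO with KO gave 1.17 (SE 0.13, adjusted p = 7.7e-06), beside a median of 0.72 over all genes tested on its chromosome 1. Ring1 was at 10.1 and 6.64 RPKM in DKO, at 5.13 and 4.99 RPKM in KO and at 7.64 and 7.83 RPKM in WT. It was lower in KO (-0.60, SE 0.21, adjusted p = 0.032), and its DKO libraries lay on both sides of WT. Bmi1 showed the widest difference of the 35 genes in both mutant lines. It was at 7.46 and 9.43 RPKM in DKO (600 and 833 reads), at 3.73 and 4.72 RPKM in KO (323 and 391 reads) and at 1.20 and 0.83 RPKM in WT ES cells (104 and 74 reads). The log2 fold changes were 3.06 in DKO (SE 0.23, adjusted p = 2.8e-07) and 2.07 in KO (SE 0.23, adjusted p = 1.8e-05). The DKO libraries of Bmi1 lay above the KO libraries (1.0, SE 0.20, adjusted p = 0.00075), and no omission of 1 library ended these calls. Pcgf2, its more abundant paralogue, was at 42.2 and 30.3 RPKM in DKO, 45.6 and 46.9 RPKM in KO and 47.4 and 48.4 RPKM in WT. The ratio of Bmi1 to Pcgf2 was 0.18 and 0.31 in DKO and 0.082 and 0.10 in KO. Pcgf5, of a variant PRC1, was at 2.60 and 2.59 RPKM in DKO, at 5.23 and 6.78 RPKM in KO and at 3.82 and 2.99 RPKM in WT. Pcgf5 had a log2 fold of -0.38 (adjusted p = 0.20) in DKO and of 0.83 (SE 0.24, adjusted p = 0.015) in KO. DKO against KO gave -1.21 (SE 0.25, adjusted p = 0.00089). Pcgf6, of the variant PRC1 that represses germline genes, was at 28.2 and 32.5 RPKM in DKO and at 48.8 and 45.6 RPKM in KO against 35.9 and 42.3 RPKM in WT. Its change was -0.36 in DKO (adjusted p = 0.028) and 0.28 in KO (adjusted p = 0.099). Pcgf3, of another variant PRC1, was at 11.6 and 15.1 RPKM in DKO, 17.4 and 16.1 RPKM in KO and 14.5 and 15.2 RPKM in WT, and passed in neither line. In KO the call of Rnf2 was lost without KO replicate 2 (adjusted p = 0.057), that of Ring1 without each WT or KO library (up to 0.17) and that of Pcgf5 without WT or KO replicate 2 (up to 0.16). In DKO the call of Pcgf6 was lost without WT replicate 2 or DKO replicate 1 (up to 0.32). The fall of Pcgf2 in DKO (-0.40, adjusted p = 0.030) was lost without each ES library but DKO replicate 1 (up to 0.23), and its value was -0.15 without DKO replicate 2.

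CBX proteins read the H3K27 mark for canonical PRC1, and 3 of the 4 described here were higher in DKO and 2 in KO. The shares of all genes that changed in either direction were 63.9% in DKO and 42.7% in KO. Cbx7, known as the main CBX protein of pluripotent mouse cells, was at 204 and 164 RPKM in DKO, at 110 and 104 RPKM in KO and at 122 and 128 RPKM in WT ES cells. Cbx7 had a log2 fold of 0.57 (SE 0.12, edgeR adjusted p = 0.0015) in DKO and of -0.21 (adjusted p = 0.20) in KO. Cbx6 was at 69.4 and 69.2 RPKM in DKO, at 32.4 and 32.8 RPKM in KO and at 37.6 and 37.0 RPKM in WT. Cbx6 had a log2 fold of 0.90 (SE 0.10, adjusted p = 1.1e-05) in DKO and of -0.18 (adjusted p = 0.18) in KO. Cbx2 was at 30.3 and 24.2 RPKM in DKO and at 39.1 and 41.5 RPKM in KO against 24.1 and 26.5 RPKM in WT. Cbx2 had a log2 fold of 0.11 (adjusted p = 0.46) in DKO and of 0.68 (SE 0.13, adjusted p = 0.0012) in KO, and DKO against KO gave -0.57 (SE 0.13, adjusted p = 0.0020). Cbx8, known from committed cells, was at 4.20 and 4.32 RPKM in DKO and at 2.74 and 3.64 RPKM in KO against 1.01 and 2.22 RPKM in WT. Cbx8 had a log2 fold of 1.40 (SE 0.35, adjusted p = 0.0037) in DKO and of 0.98 (SE 0.35, adjusted p = 0.039) in KO. Its reads were few, 34 and 77 in the WT libraries. Its KO call was lost without WT replicate 1 (0.53, adjusted p = 0.34) or without either KO library, while its DKO value lay between 0.94 and 2.08. In the fit over all 12 libraries Cbx7 in DKO (adjusted p = 0.25) and Cbx2 in KO (0.05) did not pass.

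The polyhomeotic and Scm genes, whose proteins join PRC1 complexes into larger assemblies, were changed in all 4 tested members in DKO and in 2 of 4 in KO. Of all genes tested, 63.9% changed in DKO and 42.7% in KO. Phc1 was at 100 and 98.1 RPKM in DKO, at 290.1 and 281 RPKM in KO and at 165 and 165 RPKM in WT ES cells. It was lower in DKO (-0.73, SE 0.10, edgeR adjusted p = 6.0e-05) and higher in KO (0.80, SE 0.10, adjusted p = 6.3e-05), and no 2 genotypes overlapped. Phc1 in DKO against KO gave -1.53 (SE 0.11, adjusted p = 1.1e-07), the largest fall of the 35 genes in that comparison. Phc3 was at 5.15 and 6.45 RPKM in DKO, at 2.38 and 1.78 RPKM in KO and at 2.02 and 2.33 RPKM in WT. Phc3 had a log2 fold of 1.42 (SE 0.17, adjusted p = 1.7e-05) in DKO and of -0.06 (adjusted p = 0.82) in KO. Phc2 was at 21.9 and 20.2 RPKM in DKO, 13.4 and 13.9 RPKM in KO and 14.1 and 13.0 RPKM in WT. Phc2 had a log2 fold of 0.65 (SE 0.12, adjusted p = 0.00046) in DKO and of 0.02 (adjusted p = 0.90) in KO. In DKO Phc1 was thus lower and both less abundant paralogues were higher, and the ratio of Phc2 to Phc1 was 0.22 and 0.21 in DKO against 0.085 and 0.079 in WT. Scmh1 was at 10.5 and 9.18 RPKM in DKO and at 18.9 and 18.5 RPKM in KO against 7.08 and 6.73 RPKM in WT. Scmh1 had a log2 fold of 0.51 (SE 0.13, adjusted p = 0.0046) in DKO and of 1.45 (SE 0.13, adjusted p = 4.6e-06) in KO, with all mutant libraries above WT. DKO against KO gave -0.93 for Scmh1 (SE 0.13, adjusted p = 4.4e-05). Of these calls against WT, that of Scmh1 in DKO was lost to an omission (WT replicate 2, adjusted p = 0.063), and that of Phc2 in DKO in the fit over all 12 libraries (0.14).

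Of the 5 variant PRC1 genes, 4 were higher and 1 lower in DKO, where 63.9% of all genes changed, and 4 were higher in KO, where 42.7% changed. The KO values of the X-linked Bcor and Bcorl1 lay below the median of 0.91 over all genes tested on chromosome X. Kdm2b, whose protein binds unmethylated CpG islands and brings a variant PRC1 there, was at 72.6 and 72.2 RPKM in DKO and at 44.0 and 45.5 RPKM in KO against 33.6 and 35.4 RPKM in WT ES cells. Kdm2b had a log2 fold of 1.07 (SE 0.11, edgeR adjusted p = 2.9e-06) in DKO and of 0.38 (SE 0.11, adjusted p = 0.011) in KO. Rybp, which stimulates the ligase, was at 61.3 and 75.4 RPKM in DKO and 66.0 and 58.1 RPKM in KO against 43.9 and 40.5 RPKM in WT. Rybp had a log2 fold of 0.70 (adjusted p = 0.00043) in DKO and of 0.57 (adjusted p = 0.0036) in KO. Its paralogue Yaf2 was at 10.1 and 14.1 RPKM in DKO, 8.12 and 7.39 RPKM in KO and 6.02 and 6.98 RPKM in WT. Yaf2 had a log2 fold of 0.90 (SE 0.18, adjusted p = 0.00091) in DKO and of 0.26 (adjusted p = 0.28) in KO. Bcor, the corepressor bound to PCGF1, was at 19.8 and 17.8 RPKM in DKO and 23.4 and 21.0 RPKM in KO against 12.4 and 14.6 RPKM in WT. Bcor had a log2 fold of 0.49 (adjusted p = 0.0046) in DKO and of 0.73 (adjusted p = 0.00055) in KO. Its relative Bcorl1 was lower in DKO (5.77 and 5.93 RPKM, -0.33, adjusted p = 0.043) and higher in KO (10.8 and 9.26 RPKM, 0.45, adjusted p = 0.013) than in WT (7.30 and 7.43 RPKM). The KO rise of Kdm2b was lost without either WT library (adjusted p up to 0.18), and that of Rybp without WT replicate 2 (0.056). The Bcorl1 calls were lost without either WT library, in DKO also without DKO replicate 1 (up to 0.20) and in KO also without KO replicate 1 (up to 0.12). The DKO rise of Bcor was lost without WT replicate 1 (0.11).

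Of the 4 genes for enzymes that remove Polycomb marks and their cofactor, 1 was higher and 3 lower in DKO, and 1 was higher and 1 lower in KO. Among all genes tested, 63.9% changed in DKO and 42.7% in KO. Bap1, the deubiquitinase that removes the PRC1 mark, was at 49.1 and 46.0 RPKM in DKO and 38.7 and 45.4 RPKM in KO against 63.9 and 65.8 RPKM in WT ES cells, lower in both. Bap1 had a log2 fold of -0.44 (SE 0.12, edgeR adjusted p = 0.0051) in DKO and of -0.62 (SE 0.12, adjusted p = 0.0010) in KO. Its cofactor Asxl1 was at 34.0 and 39.6 RPKM in DKO, 43.2 and 41.0 RPKM in KO and 43.8 and 46.7 RPKM in WT. Asxl1 had a log2 fold of -0.29 (adjusted p = 0.042) in DKO and of -0.10 (adjusted p = 0.54) in KO. The H3K27 demethylase gene Kdm6b was at 22.6 and 23.3 RPKM in DKO and at 28.5 and 29.3 RPKM in KO against 32.4 and 32.7 RPKM in WT. It was lower in DKO (-0.50, SE 0.11, adjusted p = 0.0013) and did not pass in KO (-0.16, adjusted p = 0.24). Kdm6a, its X-linked relative, was at 15.2 and 17.8 RPKM in DKO and 20.4 and 16.8 RPKM in KO against 11.7 and 13.2 RPKM in WT. Kdm6a had a log2 fold of 0.41 (adjusted p = 0.020) in DKO and of 0.59 (adjusted p = 0.0044) in KO. The DKO calls of Asxl1 (adjusted p up to 0.29), Bap1 (0.064) and Kdm6a (0.18) and the KO call of Kdm6a (0.065) were each lost without at least 1 WT library.

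Some KO differences stood beside shifts of whole chromosomes. The median log2 fold change in KO ES cells over all genes tested was 0.91 on chromosome X (433 genes), -0.57 on chromosome 1 (647 genes), -0.53 on chromosome 14 (432 genes) and 0.12 on chromosome 11 (1040 genes). On chromosome 6 (535 genes), which holds Ezh2, Aebp2, Phc1 and Rybp, the KO median was 0.22. In DKO against WT the median was -0.40 on chromosome 11. In DKO against KO it was -0.93 on chromosome X, 0.72 on chromosome 1, 0.60 on chromosome 14 and -0.56 on chromosome 11. In that comparison Rnf2 (1.17) lay 0.45 above its chromosome median and Cbx2 (-0.57) at -0.007 from its own. The 4 X-linked members tested, Rbbp7, Bcor, Kdm6a and Bcorl1, were all higher in KO, by 1.0, 0.73, 0.59 and 0.45. So were 338 of the 433 genes tested on chromosome X. Rnf2 on chromosome 1 (-0.60) and Bap1 on chromosome 14 (-0.62) lay within 0.1 of their chromosome medians, at differences of -0.03 and -0.09. Without the X-linked members, 10 of 31 genes were higher and 4 lower in KO, with a median of 0.02. Over all genes tested, those on chromosome X included, 42.7% changed in KO. On chromosome 11, Ezh1, Pcgf2 and Kdm6b in DKO lay at -0.02, 0.00 and -0.10 from the chromosome median, while Cbx8 and Suz12 lay above it by 1.80 and 0.79. Uty, the Y-linked relative of Kdm6a, had no reads in the DKO and KO ES libraries against 419 and 467 reads in WT. It was at least 141-fold lower in DKO and at least 142-fold lower in KO at a floor of 3 reads per library. The part of these shifts in the members' values was not tested.

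**Figure D3:**
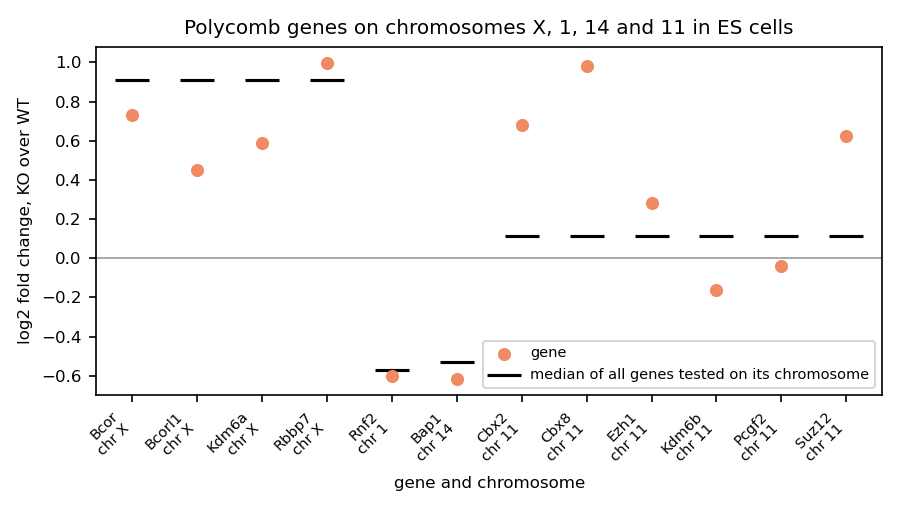
Log2 fold change in KO over WT ES cells of the tested Polycomb genes on chromosomes X, 1, 14 and 11 (points), with the median of all genes tested on the same chromosome (bars). The X-linked genes lie between 0.45 and 1.0 under or near a median of 0.91, Rnf2 and Bap1 lie at their medians, and the chromosome 11 genes scatter around 0.12.

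Genes that work with or against Polycomb were read from lists chosen with earlier results of these data known. Of 35 partners of the complexes found in the tables, 32 were tested, and of these 12 were higher and 15 lower in DKO and 6 higher and 7 lower in KO, with medians of -0.14 and 0.001. Of 20 Trithorax group genes found in the tables, which oppose Polycomb, 19 were tested, and of these 6 were higher and 6 lower in DKO and 2 higher and 8 lower in KO, with medians of 0.04 and -0.30. Among 40 genes known as Polycomb targets in ES cells, 18 passed the filter on low values, which a silent gene passes only where it is on, so their counts favour rises. Of these 10 were higher and 3 lower in DKO and 11 higher and 4 lower in KO. The shares changed in DKO and KO were 84.4% and 40.6% for partners, 63.2% and 52.6% for Trithorax genes, and 72.2% and 83.3% for targets. Over all genes tested they were 63.9% and 42.7%. Cdkn2a, the cell cycle inhibitor locus that Polycomb proteins silence, was at 2.50 and 3.42 RPKM in DKO and 31.5 and 35.2 RPKM in KO against 11.4 and 10.1 RPKM in WT ES cells. Cdkn2a had a log2 fold of -1.85 (SE 0.21, edgeR adjusted p = 8.9e-06) in DKO and of 1.64 (SE 0.18, adjusted p = 2e-05) in KO. Gata4, an endoderm regulator, was at 37.4 and 29.6 RPKM in DKO and 3.24 and 3.91 RPKM in KO against 2.44 and 2.68 RPKM in WT. Gata4 had a log2 fold of 3.72 (SE 0.17, edgeR adjusted p = 7.4e-09) in DKO and of 0.49 (SE 0.17, adjusted p = 0.033) in KO.

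On differentiation of WT cells the PRC2 core genes Eed, Ezh2, Suz12 and Rbbp4 fell and Ezh1 and Rbbp7 rose, as did the less abundant PRC1 paralogues Bmi1, Cbx8, Phc2, Phc3 and Ring1. Of the 35 genes tested, 26 changed, 14 higher and 12 lower after differentiation (edgeR, adjusted p under 0.05), where 61.1% of all 13429 genes tested changed. The 2 differentiated libraries of a genotype are 1 from day 8 and 1 from day 12, and day was a term of the fit. Bulk RNA cannot tell fewer cells of a type from less RNA per cell. Phc1 stood at 165 and 165 RPKM in WT ES cells, 38.1 RPKM at day 8 and 20.6 RPKM at day 12 (-2.55, SE 0.12, adjusted p = 9.6e-06). Jarid2 stood at 173 and 171 RPKM in WT ES cells, 47.0 RPKM at day 8 and 35.4 RPKM at day 12 (-2.06, SE 0.18, adjusted p = 5.6e-05). Eed stood at 79.9 and 82.9 RPKM in WT ES cells, 21.1 RPKM at day 8 and 23.5 RPKM at day 12 (-1.85, SE 0.20, adjusted p = 0.00014). These 3 genes, among the most abundant in ES cells, had no library of either day near the ES libraries. Mtf2 (-1.58), Cbx7 (-1.52), Pcgf6 (-1.42), Rbbp4 (-1.11), Ezh2 (-0.97), Asxl1 (-0.90), Kdm2b (-0.81), Suz12 (-0.78) and Rybp (-0.55) were also lower. Cbx7 stood at 122 and 128 RPKM in ES cells, 30.0 RPKM at day 8 and 54.5 RPKM at day 12, and its value ran between -2.42 and -0.77 when 1 library was left out.

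The rises in WT were led by genes that were low in ES cells. Pcgf5 stood at 3.82 and 2.99 RPKM in WT ES cells, 21.4 RPKM at day 8 and 48.8 RPKM at day 12 (3.27, SE 0.32, edgeR adjusted p = 9.3e-05). Cbx8 stood at 1.01 and 2.22 RPKM in ES cells, 9.41 RPKM at day 8 and 13.1 RPKM at day 12 (2.78, SE 0.42, adjusted p = 0.00073). Bmi1 stood at 1.20 and 0.83 RPKM in ES cells, 5.30 RPKM at day 8 and 7.52 RPKM at day 12 (2.67, SE 0.36, adjusted p = 0.00039). In each of the 3 genes both days lay above both ES libraries. Phf1 (1.97), Phc2 (1.94), Yaf2 (1.56), Kdm6b (1.54), Bcor (1.48), Rbbp7 (1.17), Scmh1 (1.16), Phc3 (1.03), Ring1 (0.83), Ezh1 (0.66) and Pcgf3 (0.54) were also higher. Kdm6b, the inducible H3K27 demethylase gene, stood at 32.4 and 32.7 RPKM in WT ES cells, 83.3 RPKM at day 8 and 107 RPKM at day 12 (1.54, SE 0.17, adjusted p = 0.00014). Several ratios of paralogues rose, and those of Phc2 to Phc1 and of Ezh1 to Ezh2 went above 1 on both days. The ratio of Phc2 to Phc1 was 0.085 and 0.079 in WT ES cells, 1.39 at day 8 and 2.21 at day 12. That of Ezh1 to Ezh2 was 0.45 and 0.43 in WT ES cells, 1.01 at day 8 and 1.77 at day 12. The ratio of Cbx8 to Cbx7 was 0.0083 and 0.017 in WT ES cells, 0.31 at day 8 and 0.24 at day 12. This ratio stayed below 1. So did those of Bmi1 to Pcgf2 (0.205 and 0.209 at days 8 and 12) and of Ring1 to Rnf2 (0.298 and 0.282). The call of Ezh1 was lost in 9 of 12 omissions of 1 library, KO and DKO libraries among them, with values between 0.20 and 1.11. Those of Ring1, Rybp and Suz12 were lost without either WT ES library or WT day 8. That of Pcgf3 was lost without either WT ES library, and that of Rbbp7 without WT ES replicate 2.

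**Figure D4:**
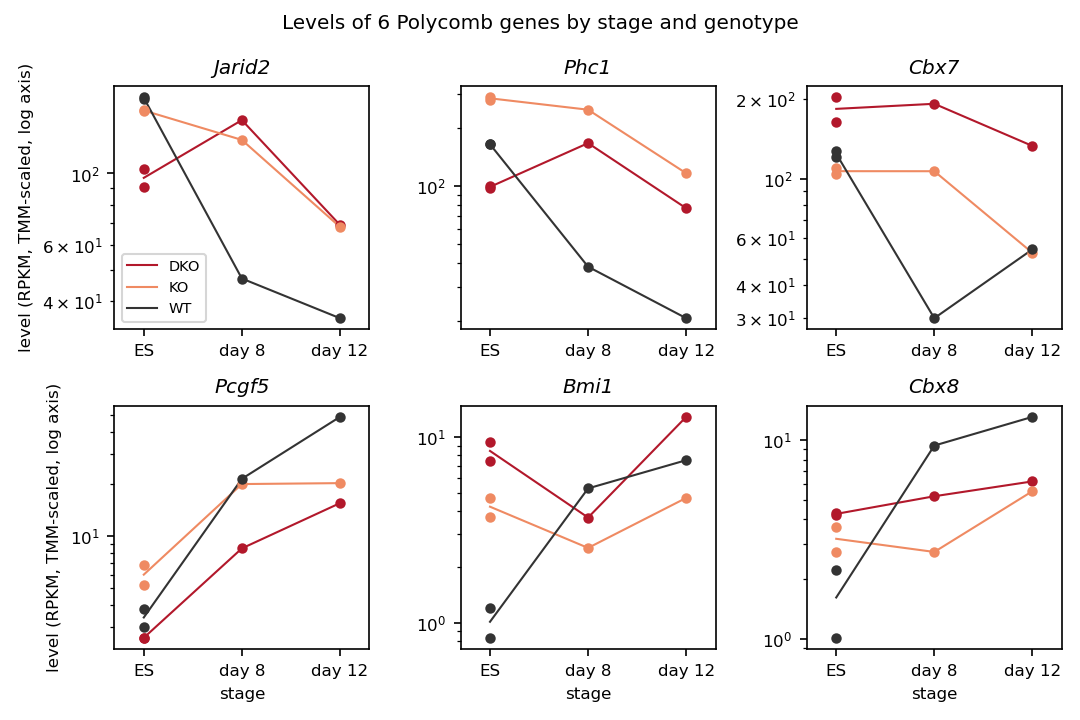
Levels in RPKM on a log axis of 6 Polycomb genes in ES cells, at day 8 and at day 12, by genotype, with points for libraries and lines through the mean of the 2 ES libraries. In WT, Jarid2, Phc1 and Cbx7 drop and Pcgf5, Bmi1 and Cbx8 climb by day 8. The KO lines are flatter for Phc1, Bmi1 and Cbx8, and so is the DKO line for Cbx8. In DKO, Bmi1 is lower at day 8 and higher at day 12 than in ES cells, and Phc1 the reverse.

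In KO and DKO cells fewer Polycomb genes passed the same test. In DKO 8 of 35 changed on differentiation, 3 higher and 5 lower, where 19.7% of all genes changed, and in KO 11 of 35, 4 higher and 7 lower, where 29.3% changed. The median absolute log2 change of the 35 genes was 0.38 in DKO, 0.52 in KO and 1.03 in WT, beside 0.44, 0.50 and 0.93 over all genes tested. Eed, Kdm2b, Kdm6b and Pcgf5 changed the same way in all 3 genotypes, and the share of all genes that did so was not computed. Pcgf5 stood at 2.60 and 2.59 RPKM in DKO ES cells, 8.51 RPKM at day 8 and 15.5 RPKM at day 12 (2.15, SE 0.31, edgeR adjusted p = 0.0042). Pcgf5 stood at 5.23 and 6.78 RPKM in KO ES cells, 20.0 RPKM at day 8 and 20.2 RPKM at day 12 (1.78, SE 0.30, adjusted p = 0.0050). Eed stood at 108 and 121 RPKM in DKO ES cells, 57.7 RPKM at day 8 and 41.8 RPKM at day 12 (-1.22, SE 0.19, adjusted p = 0.0058). Eed stood at 67.7 and 78.6 RPKM in KO ES cells, 38.0 RPKM at day 8 and 24.1 RPKM at day 12 (-1.26, SE 0.19, adjusted p = 0.0036). These calls rest on few libraries: leaving out 1 library left 0 to 15 DKO calls and 2 to 19 KO calls, and no DKO call and 2 KO calls, those of Eed and Phc1, survived every omission.

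**Figure D5:**
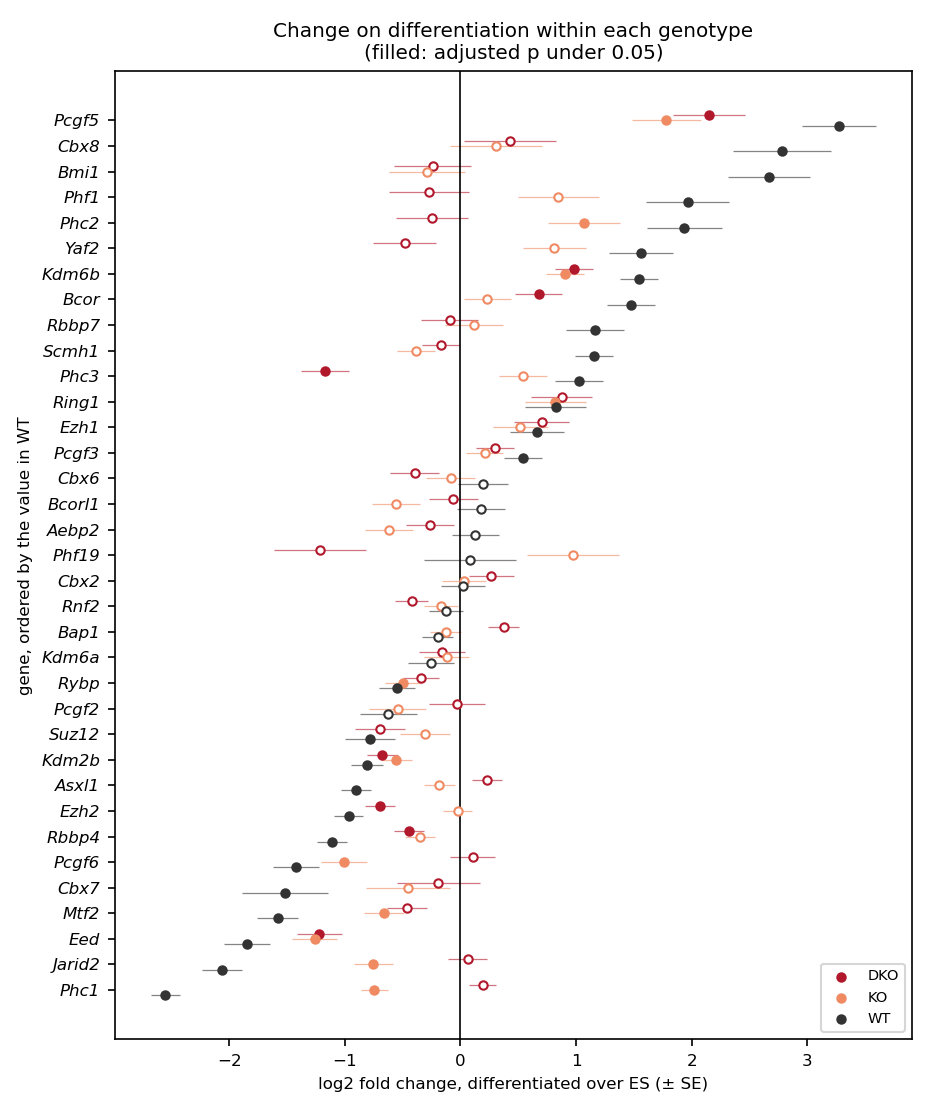
Log2 fold change of differentiated over ES cells with standard errors for the 35 tested Polycomb genes in DKO, KO and WT, ordered by the WT value. The WT points span -2.55 to 3.27, and most DKO and KO points lie closer to 0, with Pcgf5, Kdm6b, Eed and Kdm2b past the threshold in all 3 genotypes.

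The difference between the genotypes in these changes was tested as an interaction. With DKO 15 of 35 genes passed, 7 with a higher and 8 with a lower value than in WT, where 42% of all genes passed. With KO 11 of 35 passed, 6 higher and 5 lower, where 16.3% passed. Phc1 stood at 100 and 98.1 RPKM in DKO ES cells, 167 RPKM at day 8 and 76.7 RPKM at day 12. Its change was 0.20 (SE 0.12) in DKO and -2.55 in WT, a difference of 2.75 (SE 0.17, edgeR adjusted p = 6.2e-05). In KO it stood at 290.1 and 281 RPKM in ES cells, 249 RPKM at day 8 and 117 RPKM at day 12, and the difference from WT was 1.81 (SE 0.17, adjusted p = 0.0015). Both mutant lines thus held more Phc1 RNA than WT at each day. Jarid2 stood at 90.4 and 103 RPKM in DKO ES cells, 147 RPKM at day 8 and 69.1 RPKM at day 12 (interaction 2.12, SE 0.24, adjusted p = 0.00049). In KO, Jarid2 stood at 158 and 157 RPKM in ES cells, 127 RPKM at day 8 and 68.1 RPKM at day 12 (1.31, SE 0.24, adjusted p = 0.012). Bmi1 stood at 7.46 and 9.43 RPKM in DKO ES cells, 3.69 RPKM at day 8 and 12.9 RPKM at day 12 (interaction -2.91, SE 0.48, adjusted p = 0.0024). In KO, Bmi1 stood at 3.73 and 4.72 RPKM in ES cells, 2.53 RPKM at day 8 and 4.71 RPKM at day 12 (-2.96, SE 0.48, adjusted p = 0.0083). Its WT rise thus had no counterpart past the threshold in the mutant lines, whose ES cells already held more Bmi1 RNA than WT ES cells. Cbx8 stood at 4.20 and 4.32 RPKM in DKO ES cells, 5.23 RPKM at day 8 and 6.21 RPKM at day 12 (interaction -2.35, SE 0.57, adjusted p = 0.012). In KO, Cbx8 stood at 2.74 and 3.64 RPKM in ES cells, 2.74 RPKM at day 8 and 5.54 RPKM at day 12 (-2.47, SE 0.57, adjusted p = 0.025).

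Other members passed the interaction test in 1 or both lines. With DKO, Pcgf6 (1.52), Asxl1 (1.13), Mtf2 (1.12), Rbbp4 (0.67) and Bap1 (0.57) had higher values than WT, and Phf1 (-2.24), Phc3 (-2.20), Phc2 (-2.18), Yaf2 (-2.04), Scmh1 (-1.32) and Rbbp7 (-1.26) lower ones. Phc3, which rose in WT, stood at 5.15 and 6.45 RPKM in DKO ES cells, 2.76 RPKM at day 8 and 2.39 RPKM at day 12. That was a fall (-1.17, SE 0.21, edgeR adjusted p = 0.0088). Phc2 stood at 21.9 and 20.2 RPKM in DKO ES cells, 10.8 RPKM at day 8 and 27.7 RPKM at day 12, against 53.0 and 45.4 RPKM at days 8 and 12 in WT. With KO, Ezh2 (0.94), Mtf2 (0.92), Rbbp4 (0.76) and Asxl1 (0.72) had higher values than WT, and Scmh1 (-1.54), Pcgf5 (-1.49) and Bcor (-1.24) lower ones. Ezh2 stood at 32.2 and 30.5 RPKM in KO ES cells, 35.3 RPKM at day 8 and 26.8 RPKM at day 12. In WT it stood at 25.1 and 26.7 RPKM in ES cells, 15.5 RPKM at day 8 and 11.2 RPKM at day 12. Leaving out 1 library left 3 to 16 KO interactions, the fewest without any 1 of the 4 WT and KO ES libraries, and of the 11 those of Phc1 and Bmi1 survived every omission (adjusted p up to 0.023 and 0.049). Of the 15 DKO interactions 12 survived every omission, the others being Rbbp4, Rbbp7 and Bap1 (adjusted p up to 0.061, 0.10 and 0.14). The mutant libraries at days 8 and 12 held more RNA of ES cell markers. The 7 summed to 2017 to 4725 RPKM in DKO and 1323 to 2976 RPKM in KO, against 191 to 442 RPKM in WT. The 12 markers of differentiated cells summed to 30.4 to 432 RPKM in DKO and 319 to 773 RPKM in KO against 1133 to 3117 RPKM in WT, with Hbb-bh1 at 0 in DKO. The 8 fibroblast markers summed to 22.9 to 31.0 RPKM in DKO and 56.9 to 265 RPKM in KO against 604 to 960 RPKM in WT. The part of these cell type differences in the Polycomb genes' values was not tested.

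Between genotypes after differentiation, with 1 library per genotype and day, few genes passed with edgeR. In DKO against WT, 1 of 35 Polycomb genes changed, where 2.18% of all 12896 genes tested changed, and 18 of 35 had an unadjusted p under 0.05 (30.8% of all genes). DESeq2 called 14, limma 3 and the fit over all 12 libraries 18, and edgeR called 7 without WT day 12. The gene called with edgeR over all 6 libraries was Phc1, at 167 and 76.7 RPKM at days 8 and 12 in DKO against 38.1 and 20.6 RPKM in WT (2.05, SE 0.21, edgeR adjusted p = 0.043). The call was lost without each library but WT day 12 (adjusted p up to 0.30). In KO against WT 0 of 35 passed with edgeR, where 0% of all genes changed, 17 had an unadjusted p under 0.05 (23.3% of all genes), and DESeq2 called 9, limma 1 and the fit over all 12 libraries 19. Phc1 was at 249 and 117 RPKM at days 8 and 12 in KO (2.61, SE 0.21, adjusted p = 0.075). In both lines Phc1 lay above WT on both days. Kdm2b was at 56.1 and 36.4 RPKM in DKO against 20.5 and 18.6 RPKM in WT at days 8 and 12 (1.24, SE 0.21, edgeR adjusted p = 0.058). Cbx7 was at 192 and 134 RPKM in DKO against 30.0 and 54.5 RPKM in WT (1.93, SE 0.52, adjusted p = 0.096). Ezh2 was at 35.3 and 26.8 RPKM in KO against 15.5 and 11.2 RPKM in WT (1.23, SE 0.20, adjusted p = 0.088). These 3 were chosen after their values were seen and did not pass. For each, both mutant libraries lay above both WT libraries. With 1 library per genotype and day this is a description and no test.

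Between day 12 and day 8 no Polycomb gene passed with edgeR, where 0% of all genes changed, 5 of 35 had an unadjusted p under 0.05 (12.3% of all genes), and DESeq2 called 2 and limma 0. The log2 values of the 5, day 12 over day 8, were -1.04 for Phc1, -0.80 for Jarid2, -0.54 for Mtf2, -0.51 for Ezh2 and 1.06 for Bmi1. Phc1 was at 76.7 RPKM at day 12 against 167 RPKM at day 8 in DKO, 117 against 249 RPKM in KO and 20.6 against 38.1 RPKM in WT.

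Over all 12 libraries with genotype as a term, 14 of 35 genes changed on differentiation, 6 higher and 8 lower, where 35.8% of all genes changed. Pcgf5 (2.44), Kdm6b (1.16), Ring1 (0.85), Bcor (0.80), Ezh1 (0.63) and Pcgf3 (0.35) were higher, and Eed (-1.43), Mtf2 (-0.87), Pcgf6 (-0.77), Kdm2b (-0.67), Rbbp4 (-0.62), Suz12 (-0.58), Ezh2 (-0.54) and Rybp (-0.46) lower. In these libraries Pcgf5, Kdm6b and Bcor lay above every ES library after differentiation, and Eed below. The share of all genes with no such overlap was not computed. Pcgf5 ranged between 8.51 and 48.8 RPKM after differentiation and between 2.59 and 6.78 RPKM in ES cells. Kdm6b ranged between 41.3 and 107 RPKM after differentiation and between 22.6 and 32.7 RPKM in ES cells. Bcor ranged between 24.7 and 48.3 RPKM after differentiation and between 12.4 and 23.4 RPKM in ES cells. Eed ranged between 21.1 and 57.7 RPKM after differentiation and between 67.7 and 121 RPKM in ES cells. Bmi1 (0.74), Phc1 (-0.92) and Cbx8 (1.16), which moved widely in WT, did not pass over the 3 genotypes (adjusted p = 0.29, 0.13 and 0.068). The call of Pcgf3 was lost in 10 of 12 omissions of 1 library (edgeR adjusted p up to 0.13), that of Ezh2 in 8 (0.086) and that of Pcgf6 in 7 (0.085). The call of Bcor was lost without either WT ES library (0.068), and that of Suz12 without WT ES replicate 1 (0.051).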

How the data were processed

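Polyadenylated RNA of 12 libraries was sequenced, and Bowtie2 and the mouse build mm9 are named in the submitters' processing notes. The counting program, its use of strand and its treatment of reads with several positions are not given in the sources used here. Deposited were whole-number read counts for 29257 transcript models. The authors' RPKM values in the same tables scale counts by model length and library total, and served for the filter and the limma alternatives.

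The longest model stood for each of 22878 symbols. The 37 members, the partner, Trithorax and target lists and the tests were chosen with earlier results of these data known. Counts were tested with edgeR 4.0.16 (R 4.3.3), quasi-likelihood, TMM scaling, on genes with at least 1 deposited RPKM in at least 2 libraries of the fit. An adjusted p (Benjamini-Hochberg over all genes tested) under 0.05 counted as changed. The standard error is the absolute log2 fold change over the square root of F. ES comparisons used the 6 ES libraries, comparisons after differentiation 6 libraries with day as a term, and those of differentiated with ES cells all 12. Levels are RPKM recomputed from the counts with TMM library sizes over the 12 libraries.

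Alternatives were another scaling, TMM without chromosomes 1, 11, 14, X and Y, no filter, DESeq2 1.42.0, limma 3.58.1 on log2(RPKM + 1) and log2(RPKM + 0.1), the model with most reads, a replicate block, the omission of each library and a fit over all 12 libraries. The scripts were tested on simulated counts with 200 changed genes. The members described in full were, per comparison, up to 6 higher and 6 lower with the largest change, and from each list up to 4 genes by smallest adjusted p, of which some are given by counts alone. Further genes named were picked with their values in view. Overlapping exons were read from a GRCm38 annotation, used for names, chromosomes and overlap, and promoters from a RefSeq table of GRCm38.p6. Tables were handled with Python 3.11.15, pandas 2.3.3 and numpy 2.4.6, and plots drawn with matplotlib 3.10.9. The 2 ES libraries of a genotype differed by more than sampling noise, as the chi-square over its degrees of freedom was 36 in DKO, 14.9 in KO and 3.93 in WT.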

Additional observations from a re-analysis of the deposited data

Results flagged for a closer look

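These members are listed because their change on differentiation differed between a mutant line and WT. The test was the interaction term of the edgeR fit over all 12 libraries. With DKO 15 of 35 members passed, where 42% of all genes passed, and with KO 11 of 35, where 16.3% passed. Leaving out 1 library or another ended the DKO calls of Rbbp4, Rbbp7 and Bap1, and all KO calls but those of Phc1 and Bmi1. Each value is the log2 change in the mutant line minus that in WT.

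With DKO, the value was above 0 for Phc1 (2.75), Jarid2 (2.12), Pcgf6 (1.52), Asxl1 (1.13), Mtf2 (1.12), Rbbp4 (0.67) and Bap1 (0.57). It was below 0 for Bmi1 (-2.91), Cbx8 (-2.35), Phf1 (-2.24), Phc3 (-2.20), Phc2 (-2.18), Yaf2 (-2.04), Scmh1 (-1.32) and Rbbp7 (-1.26).

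With KO, the value was above 0 for Phc1 (1.81), Jarid2 (1.31), Ezh2 (0.94), Mtf2 (0.92), Rbbp4 (0.76) and Asxl1 (0.72). It was below 0 for Bmi1 (-2.96), Cbx8 (-2.47), Scmh1 (-1.54), Pcgf5 (-1.49) and Bcor (-1.24). Both sets of values share the WT libraries.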

How the results depend on the processing

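Over the 156 calls of single members, 2679 values under other settings were computed, of which 2367 kept direction and side of the threshold, 312 kept direction and lost the call, and 0 reversed. In a fit over all 12 libraries the count of changed members was 16 for DKO and 8 for KO against WT in ES cells, and 18 for DKO and 19 for KO after differentiation. DESeq2 called 14 members for DKO and 9 for KO after differentiation, 2 between days and 14 for differentiated against ES cells in DKO. With limma at either pseudocount 3 members passed for DKO and 1 for KO after differentiation. The causes of these differences were not tested.

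Leaving out 1 library at a time, the count ran in ES cells between 21 and 30 for DKO and between 12 and 23 for KO against WT, and between 19 and 26 for DKO against KO. After differentiation it ran between 0 and 7 for DKO, and was 0 throughout for KO and for the days. For differentiated against ES cells it ran between 0 and 15 in DKO, 2 and 19 in KO, 20 and 27 in WT and 9 and 19 over the 3 genotypes, and for the interactions between 12 and 19 with DKO and 3 and 16 with KO. Where an omission left 1 library in a group, that library was assumed to vary like the others.

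The replicate numbers of the ES libraries did not pair them: same-numbered libraries of DKO and KO, DKO and WT, and KO and WT had correlations of deviations of -0.0801, -0.0417 and -0.0139. With a replicate block 26 members changed for DKO and 18 for KO against WT, and 23 for DKO against KO. Few reads limit Pcgf1, Cbx8 and Bmi1 in WT ES cells.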
